A study of Mus musculus with 12 samples.

Results

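The death receptor and necroptosis genes are 10 genes chosen by function and name: Fas, Tnfrsf1a, Tnfrsf1b, Fadd, Tradd, Casp8, Cflar, Ripk1, Ripk3 and Mlkl. Each had 1 row among the 55487 genes of the deposited tables, and all 10 passed the filter on low counts, as did 15801 genes in total. RNA was sequenced after poly-A enrichment from mouse macrophages grown from bone marrow with macrophage colony-stimulating factor. The 4 groups were Fes-/- macrophages with LPS, Fes-/- macrophages with PBS, wild-type (Fes+/+) macrophages with LPS and wild-type macrophages with PBS, with 3 libraries each. LPS, a bacterial outer-membrane lipid sensed by TLR4, was given at 1 µg/mL for 4 hours, and the treatment protocol calls the PBS cells untreated. FES is a cytoplasmic tyrosine kinase of myeloid cells. The labels give the genotype as Fes-/- and Fes+/+ without the structure of the allele, the strain, the sex or the age, and the design text names 3 mice per genotype.

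Death receptors are members of the TNF receptor superfamily with a cytoplasmic death domain. When TNF binds TNFR1, the adaptor TRADD and the kinase RIPK1 are recruited and ubiquitin chains on RIPK1 lead to NF-kB signalling and survival. When that complex is not sustained, FADD brings in caspase-8 and the cell can enter apoptosis, which c-FLIP, the product of Cflar, restrains. When caspase-8 activity is blocked, RIPK1 and RIPK3 join through their RHIM motifs and RIPK3 phosphorylates MLKL, which permeabilizes the plasma membrane in necroptosis. In macrophages, TLR4 can also reach RIPK3 through the RHIM adaptor TRIF, the product of Ticam1.

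The 12 libraries held 61016254 to 101027166 counts, and mitochondrial genes took 1.16 to 1.43% of them in LPS libraries and 1.55 to 2.35% in PBS libraries. Fes itself was at 16.0 to 16.8 TPM in Fes-/- LPS libraries, against 72.2 to 82.0 TPM in wild-type LPS libraries. Under PBS it was at 63.8 to 66.7 TPM in Fes-/- libraries, against 154 to 174 TPM in wild-type libraries, so the libraries followed their genotype labels and some Fes signal remained. All 9 macrophage markers were above 1 TPM in every group, with summed levels of 17466 to 22901 TPM in LPS libraries and 29522 to 40354 TPM in PBS libraries. Of 10 neutrophil markers 3 averaged over 1 TPM in each group, and their sum was 14.2 to 20.5 TPM in Fes-/- LPS, 23.2 to 30.5 in Fes-/- PBS, 17.4 to 28.1 in wild-type LPS and 33.0 to 45.1 in wild-type PBS libraries. Their part in the results was not tested. The 7 dendritic cell markers summed to at most 21.1 TPM and the 7 T and NK cell markers to at most 8.21 TPM. B cell, stromal, erythroid and mast cell lists stayed at or under 0.726 TPM in sum. In these bulk samples, a smaller share of cells that express a gene and less RNA per cell cannot be told apart.

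Levels are TPM, a length-scaled share of a library, as mean ± SD of 3 libraries. Fold changes are log2 values from counts with TMM scaling, which sets a gene against the bulk of other genes, and are given with their standard error (SE). The scales differ here. The 50 most abundant genes took 20.0 to 20.7% of counts in LPS libraries and 14.5 to 16.4% in PBS libraries. TMM factors were 0.707 to 0.737 in LPS libraries and 1.35 to 1.40 in PBS libraries. What made the factors differ between treatments was not tested. With them, the median log2 fold of all tested genes with LPS was -0.08 in Fes-/- and -0.07 in wild-type macrophages. With library totals alone it was -1.01 in Fes-/- and -0.98 in wild type. A gene that keeps its place among the bulk of genes therefore loses TPM with LPS, and both scales are printed below.

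With LPS, the receptors Fas and Tnfrsf1b, the caspase-8 brake Cflar and the necroptosis effector Mlkl rose several-fold in both genotypes. Tnfrsf1a and Casp8 rose by less, the adaptor Fadd fell, and Tradd and Ripk3 fell slightly by TMM and more clearly in TPM. Ripk1 was not called with TMM, while library totals and TPM put it lower. The quasi-likelihood F test of edgeR called 9 of 10 genes in each genotype. In Fes-/- macrophages 6 were higher and 3 lower, where 73.2% of all tested genes were called, 34.3% higher and 38.9% lower. In wild-type macrophages 6 were higher and 3 lower, against 73.4% of all genes, 34.6% higher and 38.8% lower. Most genes changed at this time, so a call alone does not set these genes apart. Their median log2 fold was 1.56 in Fes-/- and 1.63 in wild-type macrophages, and their median absolute log2 fold was 1.66 in Fes-/- and 1.63 in wild type, against 0.86 and 0.88 over all tested genes in those genotypes. Among all tested genes, TMM gave 5424 higher and 6150 lower calls in Fes-/- macrophages (46.9% higher), and library totals gave 2510 and 11064 (18.5% higher). In wild-type macrophages TMM gave 5464 and 6137 (47.1% higher), and library totals gave 2579 and 10828 (19.2% higher).

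**Figure D1:**
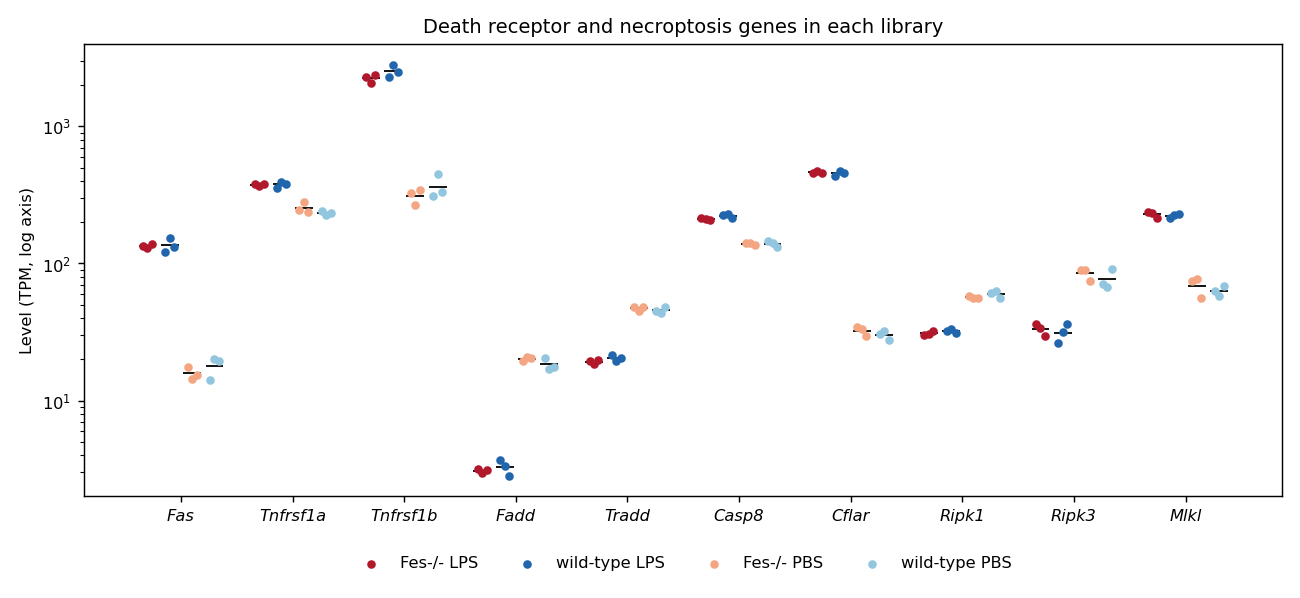
Level in TPM (log axis) of each of the 10 genes in each of the 12 libraries; points are libraries, short lines are means of 3, and colours are the 4 groups. LPS and PBS libraries of a genotype separate in all 10 genes, while Fes-/- and wild-type libraries overlap except for Casp8 under LPS. The share of all tested genes that separate in these ways was not counted, so neither count sets the 10 genes apart.

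**Figure D2:**
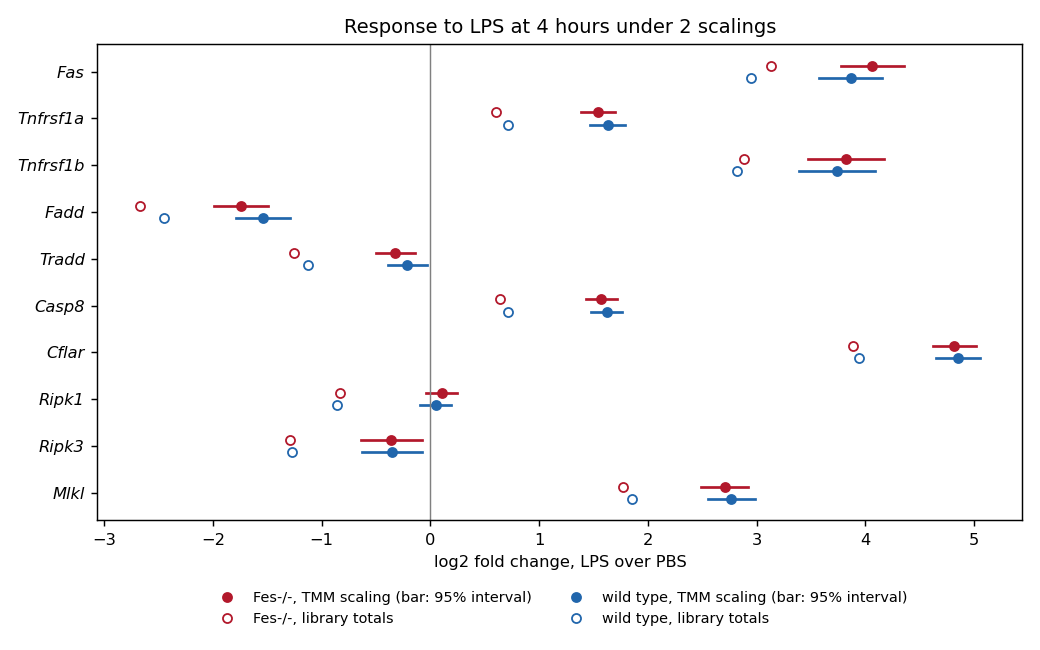
log2 fold change of LPS over PBS for each gene in Fes-/- (red) and wild-type (blue) macrophages; filled points use TMM scaling with bars of 95% intervals, and open points use library totals. The open points lie to the left of the filled ones throughout, and only Ripk1 lies on different sides of 0 with the 2 scalings.

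Promoter sequences are shown for the 3 genes with the highest LPS folds and for Ripk1, which was not called with TMM, because the windows differ in their matches to motifs of LPS-activated factors. RefSeq windows of 300 bases on GRCm38.p6, from 250 bases before to 50 after an annotated start, were matched for 9 of the 10 genes, with 10 windows. Tradd had no window. Both strands were searched for the kB motif (GGGA, any 4 bases, CC), the IRF motif (GAAA, any 2 bases, GAAA), the STAT motif TTCNNNGAA and the AP-1 motif TGANTCA. These occur in 20.7%, 3.43%, 8.29% and 7.81% of 32817 promoter windows of that length. The windows are Cflar at chr1:58711241-58711540 on the plus strand, Tnfrsf1b at chr4:145246821-145247120 on the minus strand, Fas at chr19:34290409-34290708 on the plus strand, and the second of 2 Ripk1 windows at chr13:34002624-34002923 on the plus strand. Each is written 5′ to 3′ in the direction of the gene, and capitals mark bases that match any of the 4 motifs.
Cflar: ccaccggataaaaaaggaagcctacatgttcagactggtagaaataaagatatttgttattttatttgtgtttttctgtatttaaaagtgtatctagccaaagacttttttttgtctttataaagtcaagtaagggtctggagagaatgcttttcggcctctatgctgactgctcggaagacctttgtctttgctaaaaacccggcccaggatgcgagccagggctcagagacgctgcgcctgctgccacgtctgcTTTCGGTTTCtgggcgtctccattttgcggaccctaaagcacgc
Tnfrsf1b: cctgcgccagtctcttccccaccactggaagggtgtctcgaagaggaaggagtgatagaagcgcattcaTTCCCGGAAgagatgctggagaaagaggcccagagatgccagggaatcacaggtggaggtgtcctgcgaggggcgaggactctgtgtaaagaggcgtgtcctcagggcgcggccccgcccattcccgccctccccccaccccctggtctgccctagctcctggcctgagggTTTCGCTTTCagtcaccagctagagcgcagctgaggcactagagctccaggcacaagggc
Fas: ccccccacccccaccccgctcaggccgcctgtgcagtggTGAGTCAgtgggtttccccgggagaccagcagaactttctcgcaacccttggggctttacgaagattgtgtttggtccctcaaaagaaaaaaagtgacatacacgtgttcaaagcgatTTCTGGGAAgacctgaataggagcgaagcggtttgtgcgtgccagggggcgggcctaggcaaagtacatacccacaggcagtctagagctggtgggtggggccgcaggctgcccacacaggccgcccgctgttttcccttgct
Ripk1: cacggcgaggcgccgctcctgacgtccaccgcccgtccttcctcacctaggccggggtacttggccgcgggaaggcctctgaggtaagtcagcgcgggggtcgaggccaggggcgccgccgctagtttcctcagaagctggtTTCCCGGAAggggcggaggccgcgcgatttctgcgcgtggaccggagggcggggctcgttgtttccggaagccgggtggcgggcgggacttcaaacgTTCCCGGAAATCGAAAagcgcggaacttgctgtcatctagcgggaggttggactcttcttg

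The IRF motif occurred in the windows of Cflar (bases 257 to 266, TTTCGGTTTC, on the reverse strand), Tnfrsf1b (bases 241 to 250, TTTCGCTTTC, reverse) and Ripk1 (bases 246 to 255, GAAATCGAAA, forward). The STAT motif, which reads the same on both strands, occurred in the windows of Tnfrsf1b, Tnfrsf1a, Fas and Ripk1. The Ripk1 window held it at bases 143 to 151 and 240 to 248, and the match at 240 overlaps the IRF match, so that their capitals run together. The AP-1 motif occurred in the Fas window, and 0 of the 9 genes held the kB motif. The windows of Casp8, Fadd, Mlkl and Ripk3 and the other Ripk1 window held none of the 4. A match is a string of letters in this window and was not tested as a site, and the start sites used by these cells were not measured. The windows of Casp8 and Tnfrsf1a and the Ripk1 window printed above begin downstream of the start of their gene in GENCODE M21.

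The death receptors were read before their adaptors and effectors. Fas encodes the receptor for FAS ligand. It was at 135, 129 and 139 TPM in Fes-/- LPS libraries, against 17.6, 14.5 and 15.3 TPM in Fes-/- PBS libraries. Wild-type libraries held 122, 153 and 133 TPM with LPS, against 14.2, 20.1 and 19.5 TPM with PBS. Every LPS library lay above every PBS library of its genotype. Fas rose by 4.06 ± 0.14 in Fes-/- (adjusted p = 1.57e-12) and by 3.86 ± 0.13 in wild-type macrophages (adjusted p = 2.37e-12). On the TPM scale its LPS mean was 8.49-fold the PBS mean in Fes-/- and 7.57-fold in wild-type macrophages.

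Tnfrsf1b encodes TNFR2, a TNF receptor without a death domain that signals through TRAF2. It was at 2274, 2049 and 2369 TPM in Fes-/- LPS libraries, against 324, 266 and 341 TPM in Fes-/- PBS libraries. In wild-type libraries it was at 2281, 2816 and 2468 TPM with LPS, against 309, 450.0 and 332 TPM with PBS. Its mean was the highest of the 10 genes in every group, and the LPS and PBS libraries did not overlap. It rose by 3.82 ± 0.16 in Fes-/- (adjusted p = 1.91e-11) and 3.74 ± 0.16 in wild-type macrophages (adjusted p = 2.34e-11), with LPS means in TPM of 7.20-fold the PBS mean in Fes-/- and 6.94-fold in wild type.

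Tnfrsf1a encodes TNFR1, the death-domain receptor for TNF. It was at 381, 367 and 380 TPM in Fes-/- LPS libraries, against 246, 280 and 238 TPM in Fes-/- PBS libraries, and at 357, 392 and 380 TPM with LPS in wild type, against 241, 227 and 233 TPM with PBS. Both genotypes separated by treatment with a smaller gap than in the other receptors. The rise was 1.54 ± 0.07 in Fes-/- (adjusted p = 7.33e-11) and 1.63 ± 0.07 in wild-type macrophages (adjusted p = 3.95e-11), while LPS means in TPM were 1.48-fold the PBS mean in Fes-/- and 1.61-fold in wild type. The ratio of Tnfrsf1b to Tnfrsf1a within a library does not depend on library scaling. It averaged 5.93 ± 0.331 in Fes-/- LPS libraries, against 1.23 ± 0.251 in Fes-/- PBS libraries, and 6.69 ± 0.434 in wild-type LPS libraries, against 1.56 ± 0.373 in wild-type PBS libraries (SD, n = 3 each).

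The adaptors went the other way. Fadd, which links death domains to caspase-8, lies on chromosome 7 (GRCm38, 144577318 to 144582463), 64.2 Mb from Fes on the same chromosome. It was at 3.17, 2.96 and 3.13 TPM in Fes-/- LPS libraries, against 19.5, 20.8 and 20.5 TPM in Fes-/- PBS libraries. Wild-type levels were 3.70, 3.37 and 2.84 TPM with LPS, against 20.6, 17.1 and 17.7 TPM with PBS. It was the lowest of the 10 genes in both LPS groups. Fadd fell by 1.74 ± 0.12 in Fes-/- (adjusted p = 2.9e-09) and fell by 1.54 ± 0.12 in wild-type macrophages (adjusted p = 1.21e-08), and on the TPM scale the LPS mean was 15.2% of the PBS mean in Fes-/- and 17.9% in wild type. The counts behind these values were 234 to 376 in Fes-/- LPS libraries and 220 to 269 in wild-type LPS libraries. In the annotation 239 bp, or 6.1% of the exon length of Fadd, overlap Faddos on the opposite strand, which had at most 2 counts in a library.

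Tradd encodes the adaptor that TNFR1 binds first. It averaged 19.2 ± 0.748 TPM in Fes-/- LPS libraries, against 47.2 ± 2.19 TPM in Fes-/- PBS libraries, and 20.4 ± 1.07 TPM in wild-type LPS libraries, against 45.5 ± 2.17 TPM in wild-type PBS libraries (SD, n = 3 each). LPS libraries lay below PBS libraries in TPM. With TMM the fall was small, -0.32 ± 0.08 in Fes-/- (adjusted p = 0.00283) and -0.21 ± 0.08 in wild-type macrophages (adjusted p = 0.0335). The wild-type call ended with RLE factors (adjusted p = 0.0823), DESeq2 (0.0733), the 6 wild-type libraries alone (0.0647), and without wild-type PBS 3 (0.152), wild-type LPS 2 (0.0995), wild-type LPS 3 (0.0795) or Fes-/- PBS 1 (0.0583).

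Casp8 and Cflar lie close together on chromosome 1 (GRCm38, 58795374 to 58847503 and 58711508 to 58758884) and encode related proteins, an initiator protease and its relative c-FLIP that lacks protease activity. Casp8 was at 214, 209.7 and 209 TPM in Fes-/- LPS libraries, against 141, 142 and 135 TPM in Fes-/- PBS libraries. In wild-type macrophages the levels were 224, 229.7 and 216 TPM with LPS, against 145, 142 and 131 TPM with PBS. Casp8 varied least of the 10 genes among the Fes-/- LPS libraries, with a coefficient of variation of 1.26%. It rose by 1.57 ± 0.07 in Fes-/- (adjusted p = 1.85e-11) and 1.62 ± 0.07 in wild-type macrophages (adjusted p = 1.36e-11), and its LPS mean in TPM was 1.51-fold the PBS mean in Fes-/- and 1.60-fold in wild type.

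Cflar had the highest fold of the 10 genes. It was at 458, 471 and 459.5 TPM in Fes-/- LPS libraries, against 34.2, 33.2 and 29.6 TPM in Fes-/- PBS libraries. Wild-type libraries held 436, 469.8 and 458 TPM with LPS, against 30.6, 32.0 and 27.8 TPM with PBS. The rise was 4.82 ± 0.09 in Fes-/- (adjusted p = 1.46e-14) and 4.86 ± 0.09 in wild-type macrophages (adjusted p = 1.34e-14), and the LPS mean in TPM was 14.3-fold the PBS mean in Fes-/- and 15.1-fold in wild type. By absolute log2 fold it stood at percentile 95.4 of all tested genes in Fes-/- and 95.1 in wild-type macrophages.

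The ratio of Cflar to Casp8 TPM within a library therefore rose with LPS. It was 2.14, 2.25 and 2.20 in Fes-/- LPS libraries, against 0.243, 0.233 and 0.218 in Fes-/- PBS libraries. In wild type it was 1.95, 2.05 and 2.13 with LPS, against 0.211, 0.226 and 0.213 with PBS. With the lengths used for TPM, Cflar was below Casp8 in all 6 PBS libraries and above it in all 6 LPS libraries. The height of this ratio, and so which gene comes out higher, depends on gene length. The deposited TPM match a Cflar length of 12669 bp, the union of all its exons, while its coding transcripts in GENCODE M21 run from 1771 to 6572 bp, so its TPM may be low for the isoforms present, which were not measured. A length fixed for every library cancels from the change with LPS.

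The necroptosis kinases did not follow the receptors. Ripk1, the kinase shared by survival and death signalling, was at 30.1, 30.4 and 32.5 TPM in Fes-/- LPS libraries, against 57.6, 56.0 and 56.3 TPM in Fes-/- PBS libraries. In wild-type libraries it was at 32.3, 33.2 and 31.4 TPM with LPS, against 60.8, 63.1 and 56.0 TPM with PBS. TPM thus separated the treatments, with the LPS mean at 54.7% of the PBS mean in Fes-/- and 53.9% in wild type. With TMM the log2 values were 0.11 ± 0.07 in Fes-/- (adjusted p = 0.171) and 0.05 ± 0.07 in wild-type macrophages (adjusted p = 0.518), and with library totals they were -0.83 in Fes-/- (adjusted p = 1.14e-08) and -0.86 in wild type (adjusted p = 7.19e-09). RLE factors (0.16, adjusted p = 0.0463) and DESeq2 (0.16, adjusted p = 0.0274) called Ripk1 higher in Fes-/- macrophages. In the annotation 511 bp, or 6.1% of its exon length, overlap the pseudogene Gm17084 on the same strand, which had 0 counts. On the opposite strand 241 bp, or 2.9%, overlap exons of Serpinb6a, a gene with up to 47083 counts in a library. Serpinb6a averaged 158 ± 10.9 TPM in Fes-/- LPS libraries, against 372 ± 46.0 TPM in Fes-/- PBS libraries, and 181 ± 17.5 TPM in wild-type LPS libraries, against 414 ± 24.4 TPM in wild-type PBS libraries, all above Ripk1 and lower with LPS on this scale. Whether the counting used strand is not stated in the labels, so the share of Ripk1 counts that came from this overlap is unknown, and its levels and folds are uncertain to that extent.

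Ripk3 encodes the kinase that activates MLKL. It was at 36.5, 34.1 and 29.8 TPM in Fes-/- LPS libraries, against 89.8, 89.5 and 74.8 TPM in Fes-/- PBS libraries. Wild-type levels were 26.3, 31.6 and 36.0 TPM with LPS, against 71.1, 67.8 and 91.3 TPM with PBS. LPS libraries were all below PBS libraries in TPM, with means 2.53-fold lower in Fes-/- and 2.45-fold lower in wild type. With TMM, Ripk3 fell by 0.36 ± 0.13 in Fes-/- (adjusted p = 0.0225) and fell by 0.35 ± 0.13 in wild-type macrophages (adjusted p = 0.0249). The Fes-/- call ended without Fes-/- PBS 1 (adjusted p = 0.0897), Fes-/- PBS 2 (0.0801) or Fes-/- LPS 3 (0.095). The wild-type call ended with RLE factors (0.0507), DESeq2 (0.0503), and without wild-type PBS 3 (0.178) or wild-type LPS 1 (0.109).

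Mlkl encodes the pseudokinase that carries out membrane rupture. It was at 236, 234 and 215 TPM in Fes-/- LPS libraries, against 74.0, 77.0 and 56.1 TPM in Fes-/- PBS libraries. In wild-type macrophages the levels were 215, 225 and 230.4 TPM with LPS, against 62.9, 57.9 and 68.4 TPM with PBS. It rose by 2.71 ± 0.10 in Fes-/- (adjusted p = 4.93e-12) and 2.77 ± 0.10 in wild-type macrophages (adjusted p = 4.09e-12), or 3.30-fold in Fes-/- and 3.55-fold in wild type on TPM means. Mlkl and Ripk3 therefore parted. Their ratio was 6.46, 6.85 and 7.21 in Fes-/- LPS libraries, against 0.824, 0.861 and 0.749 in Fes-/- PBS libraries, and 8.18, 7.12 and 6.40 in wild-type LPS libraries, against 0.884, 0.854 and 0.750 in wild-type PBS libraries.

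**Figure D3:**
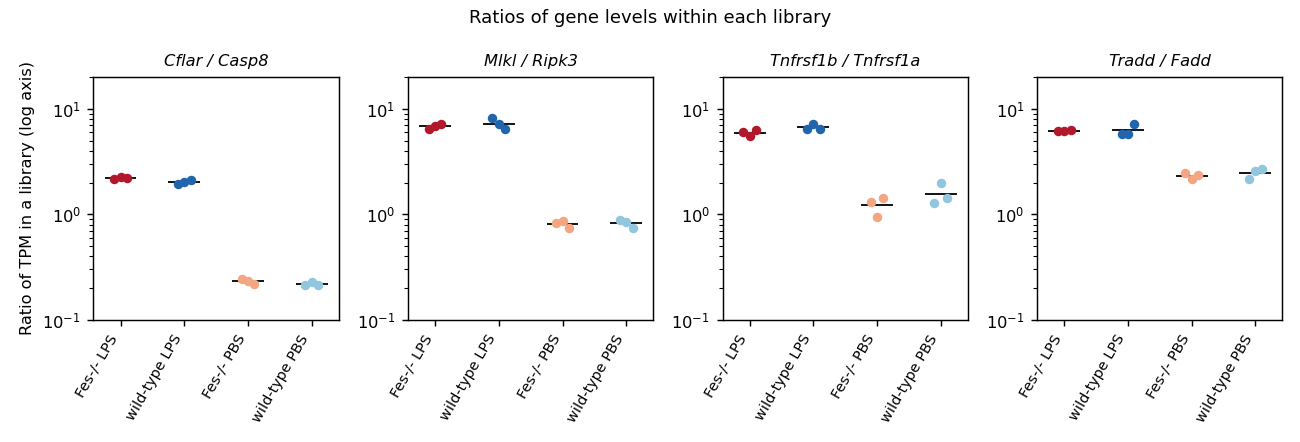
Ratio of the TPM of 2 genes within each library (log axis) for Cflar to Casp8, Mlkl to Ripk3, Tnfrsf1b to Tnfrsf1a and Tradd to Fadd; points are libraries and lines are means of 3. All 4 ratios are higher in every LPS library than in any PBS library, and Cflar to Casp8 passes 1 with LPS on the gene lengths used for TPM. Each has the gene with the higher LPS fold on top, so this direction follows from the folds above. The ratio of Ripk3 to Ripk1, not drawn, was lower on average with LPS in both genotypes.

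Set in order of mean TPM, the LPS groups began with Tnfrsf1b, Cflar, Tnfrsf1a, Mlkl, Casp8 and Fas in both genotypes. The lower ranks were Ripk3, Ripk1, Tradd and Fadd in Fes-/- and Ripk1, Ripk3, Tradd and Fadd in wild-type macrophages. Ripk1 and Ripk3 overlapped over their 3 libraries in both LPS groups, and Mlkl and Casp8 in wild type. In the PBS groups the order was Tnfrsf1b, Tnfrsf1a, Casp8, Ripk3, Mlkl, Ripk1, Tradd, Cflar, Fadd and Fas in both genotypes. There Ripk3 and Mlkl, and Mlkl and Ripk1, overlapped in both genotypes, Tnfrsf1b and Tnfrsf1a overlapped in Fes-/- libraries, and Fadd and Fas overlapped in wild-type libraries. Cflar stood at rank 2 with LPS, against rank 8 under PBS, and Fas at rank 6 with LPS, against rank 10 under PBS. These ranks rest on the union of all exons of a gene as its length. That length exceeds the longest coding transcript in GENCODE M21 for Cflar (12669 against 6572 bp), Ripk1 (8344 against 6472 bp), Fas (2062 against 1481 bp) and others. The isoforms present were not measured, so ranks between genes may shift with the length used.

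The genes whose profiles over the 12 libraries lay closest to Cflar, among 9256 candidates, were Peli1, Il15 and Csrnp1, with root-mean-square differences of 0.112, 0.113 and 0.137 in centred log2 CPM. Peli1 encodes a ubiquitin ligase of TLR signalling, Il15 a cytokine and Csrnp1 a nuclear protein. Closest to Fadd, the gene with the lowest fold, were Kat14, Naa40 and Akap8, at 0.0937, 0.0947 and 0.0977. This is a description of likeness over 12 libraries that fall mainly by treatment.

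Between genotypes, 0 of the 10 genes were called by edgeR. Under PBS 0.0823% of all tested genes were called, under LPS 0.108% and in the interaction, the difference of the LPS effects, 0.019%. No gene of the 10 had an unadjusted p under 0.05 in any of these 3 comparisons, where 3.83%, 6.52% and 2.94% of all tested genes had one, and DESeq2 and every other alternative that was run also called 0. Under PBS the log2 differences of Fes-/- over wild type ran from -0.27 to 0.09 and under LPS from -0.19 to 0.08. All 10 intervals lay within 2-fold in each comparison, the widest bounds being 0.667-fold and 1.29-fold under PBS and 0.706-fold and 1.29-fold under LPS. These intervals limit how large a genotype difference these libraries leave room for, and they do not show that the genotypes are alike.

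**Figure D4:**
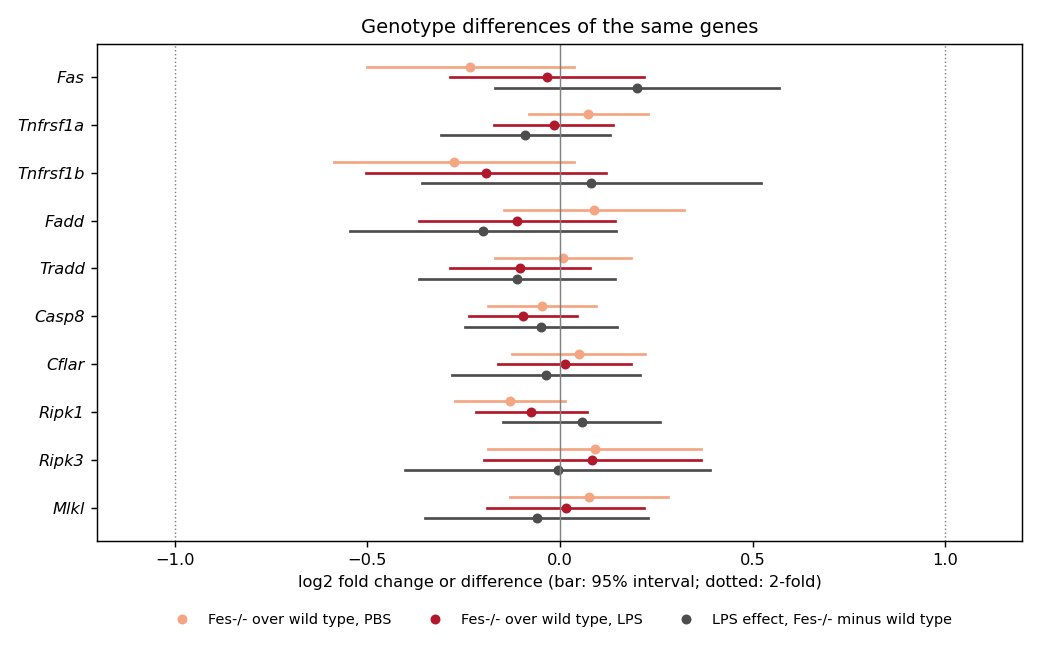
log2 difference of Fes-/- over wild type under PBS and under LPS, and of the LPS effect in Fes-/- minus that in wild type, for each gene; points are estimates, bars are 95% intervals and dotted lines mark 2-fold. Every bar crosses 0 and stays inside the dotted lines.

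The lowest log2 differences under PBS were those of Tnfrsf1b and Fas. Tnfrsf1b averaged 310.0 ± 39.4 TPM in Fes-/- and 363 ± 75.9 TPM in wild-type PBS libraries (log2 difference -0.27 ± 0.15, adjusted p = 0.975), where wild-type PBS 2 alone reached 450.0 TPM. Fas averaged 15.8 ± 1.64 TPM in Fes-/- and 17.95 ± 3.26 TPM in wild-type PBS libraries (-0.23 ± 0.13, adjusted p = 0.975). Under LPS, Tnfrsf1b averaged 2231 ± 164 TPM in Fes-/- and 2522 ± 272 TPM in wild-type libraries (-0.19 ± 0.15, adjusted p = 0.88). Casp8 under LPS was the only gene whose genotypes did not overlap in TPM, at 208.9 to 213.9 TPM in Fes-/- against 215.5 to 229.7 TPM in wild-type libraries, with a log2 difference of -0.10 ± 0.07 (adjusted p = 0.858). The share of all tested genes that separate in this way was not counted, so this does not set Casp8 apart. Fadd, on the chromosome of Fes, had log2 differences of 0.09 ± 0.11 under PBS (adjusted p = 0.975) and -0.11 ± 0.12 under LPS (adjusted p = 0.908).

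For the response itself, the largest differences of LPS effects, Fes-/- minus wild type, were 0.20 ± 0.17 for Fas (interval -0.17 to 0.57) and -0.20 ± 0.16 for Fadd (interval -0.54 to 0.15). Cflar had -0.04 ± 0.11, Mlkl -0.06 ± 0.14 and Ripk3 -0.01 ± 0.18, and all 10 had an adjusted p of 1.

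The surrounding pathway was read from 7 lists of 86 entries, of which 81 genes were tested. With LPS 53 rose and 15 fell in Fes-/-, and 55 rose and 17 fell in wild-type macrophages with TMM, which is 84.0% and 88.9% called against 73.2% and 73.4% of all genes. Among genes passing a filter of 1 CPM in 3 libraries a larger share was called, 9826 of 12289 in Fes-/- and 9862 of 12289 in wild type. The lists were also chosen with earlier results of these data known, so these shares do not set them apart. Between genotypes 0 of the 81 were called under PBS, under LPS or in the interaction, and 3, 4 and 2 had an unadjusted p under 0.05. Genes named below are the 3 with the smallest p per list in wild-type macrophages, and others are said to be chosen after their values were seen.

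Of 5 tested death ligands, 4 rose and 1 fell in each genotype, also with library totals and on log2(TPM + 1). Tnfsf10, which encodes TRAIL, averaged 309 ± 20.9 TPM in Fes-/- LPS libraries, against 3.13 ± 1.44 TPM in Fes-/- PBS libraries, and 291 ± 16.3 TPM in wild-type LPS libraries, against 2.18 ± 0.413 TPM in wild-type PBS libraries. It rose by 7.62 ± 0.31 in Fes-/- (adjusted p = 5.91e-10) and 8.0 ± 0.32 in wild-type macrophages (adjusted p = 4.51e-10). Lta, encoding lymphotoxin alpha, rose and stayed low, at 3.50 ± 0.923 TPM in Fes-/- and 3.71 ± 0.458 TPM in wild-type LPS libraries. Tnfsf15, encoding TL1A, averaged 180 ± 56.1 TPM in Fes-/- LPS libraries, against 1.24 ± 0.396 TPM in Fes-/- PBS libraries, and 107 ± 32.0 TPM in wild-type LPS libraries, against 0.838 ± 0.234 TPM in wild-type PBS libraries. Tnf, chosen after its values were seen, was at 4731, 7063 and 4150.0 TPM in Fes-/- LPS libraries, against 35.4, 45.5 and 18.3 TPM in Fes-/- PBS libraries, and at 4146, 2811 and 3994 TPM in wild-type LPS libraries, against 24.2, 8.75 and 25.5 TPM in wild-type PBS libraries. It was not called between genotypes under PBS (adjusted p = 0.975) or LPS (adjusted p = 0.883). Fasl, the gene for the FAS ligand, was not tested, with at most 1 count in a library.

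Of 7 other death and decoy receptors tested, 1 rose and 4 fell in Fes-/- and 2 rose and 4 fell in wild-type macrophages with TMM, and library totals gave 6 lower in Fes-/- and 5 lower in wild type. Tnfrsf12a, the TWEAK receptor gene, rose by 2.67 ± 0.18 in Fes-/- (adjusted p = 2.76e-09) and 3.06 ± 0.18 in wild-type macrophages (adjusted p = 7.71e-10). Tnfrsf21, encoding death receptor 6, fell by 1.96 ± 0.12 in Fes-/- and fell by 2.07 ± 0.12 in wild-type macrophages. Tnfrsf26, a mouse receptor gene of the same family, fell by 1.47 ± 0.11 in Fes-/- and fell by 1.53 ± 0.11 in wild-type macrophages.

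Of 20 complex I genes, the adaptors, ubiquitin ligases and kinases around TNFR1, 17 rose and 1 fell in Fes-/- and 16 rose and 2 fell in wild-type macrophages. Library totals gave 12 higher and 6 lower in Fes-/- and 13 higher and 6 lower in wild type. The TNFR adaptor gene Traf2 averaged 47.0 ± 1.44 TPM in Fes-/- LPS libraries, against 17.5 ± 0.864 TPM in Fes-/- PBS libraries, and rose by 2.40 ± 0.08 in both Fes-/- (adjusted p = 8.77e-13) and wild-type macrophages (adjusted p = 8.63e-13). The kinase gene Ikbke rose by 3.08 ± 0.09 in Fes-/- and 3.17 ± 0.09 in wild type, and Mapkapk2, encoding the RIPK1 kinase MK2, by 3.10 ± 0.10 in Fes-/- and 3.16 ± 0.10 in wild type.

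Of 11 genes on the list of RIPK1 deubiquitinases and brakes, 8 rose in each genotype with TMM, with 2 lower in Fes-/- and 1 lower in wild-type macrophages, and library totals gave 6 higher and 5 lower in both. Tnfaip3, encoding the ubiquitin-editing enzyme A20, averaged 1211 ± 44.6 TPM in Fes-/- LPS libraries, against 8.85 ± 1.11 TPM in Fes-/- PBS libraries. It rose by 8.08 ± 0.15 in Fes-/- (adjusted p = 8.42e-15) and 8.29 ± 0.15 in wild-type macrophages (adjusted p = 8.3e-15). The list also holds the deubiquitinase gene Cyld and its partner Spata2, whose products can promote death signalling by RIPK1. Cyld rose by 0.51 ± 0.08 in Fes-/- and 0.47 ± 0.08 in wild-type macrophages and Spata2 by 0.44 ± 0.09 in Fes-/- and 0.40 ± 0.09 in wild type with TMM, while their mean TPM was lower with LPS in both genotypes. They are named after their values were seen. Peli1 rose by 5.00 ± 0.11 in Fes-/- and 4.88 ± 0.11 in wild type, and Tnip1, whose product works with A20, by 3.49 ± 0.12 in Fes-/- and 3.79 ± 0.12 in wild type.

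Of 13 RHIM partners and upstream sensors, 10 rose and 2 fell in Fes-/- and 11 rose and 2 fell in wild-type macrophages, while library totals gave 6 higher and 5 lower in both. The double-stranded RNA receptor gene Tlr3 rose by 4.36 ± 0.11 in Fes-/- (adjusted p = 1.35e-13) and 4.35 ± 0.11 in wild-type macrophages (adjusted p = 1.36e-13). The RNA-dependent kinase gene Eif2ak2 rose by 3.01 ± 0.14 in Fes-/- and 3.08 ± 0.14 in wild type, and the RNA editor gene Adar by 2.52 ± 0.13 in Fes-/- and 2.55 ± 0.13 in wild type. Zbp1, a RHIM sensor of Z-form nucleic acids chosen after its values were seen, rose by 3.98 ± 0.35 in Fes-/- (adjusted p = 1.39e-06) and 4.05 ± 0.35 in wild-type macrophages (adjusted p = 1.2e-06).

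Of 12 genes of the executioner and mitochondrial arm, 6 rose and 2 fell in Fes-/- and 7 rose and 2 fell in wild-type macrophages with TMM, but library totals gave 3 higher and 7 lower in both. The median log2 fold was 0.27 in Fes-/- and 0.31 in wild type with TMM, and -0.66 in Fes-/- and -0.60 in wild type with library totals. Apaf1, encoding the apoptosome scaffold, rose by 2.01 ± 0.08 in Fes-/- and 1.98 ± 0.08 in wild type. Casp9, the apoptosome caspase gene, fell by 2.14 ± 0.09 in Fes-/- (adjusted p = 2.27e-11) and fell by 2.18 ± 0.09 in wild-type macrophages (adjusted p = 1.97e-11).

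Of 13 tested FAS and caspase-8 modulators, 7 rose and 3 fell in Fes-/- and 7 rose and 5 fell in wild-type macrophages with TMM, while library totals gave 6 higher and 7 lower in both. Their median was 0.49 in Fes-/- and 0.51 in wild type with TMM, and -0.45 in Fes-/- and -0.40 in wild type with library totals. Ripk2, the kinase gene of NOD receptor signalling, rose by 5.28 ± 0.11 in Fes-/- and 5.15 ± 0.11 in wild type. Daxx, encoding a FAS-binding protein, rose by 4.55 ± 0.13 in Fes-/- and 4.56 ± 0.13 in wild type, and N4bp1, encoding a caspase-8 substrate, by 3.31 ± 0.09 in Fes-/- and 3.37 ± 0.09 in wild type.

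**Figure D5:**
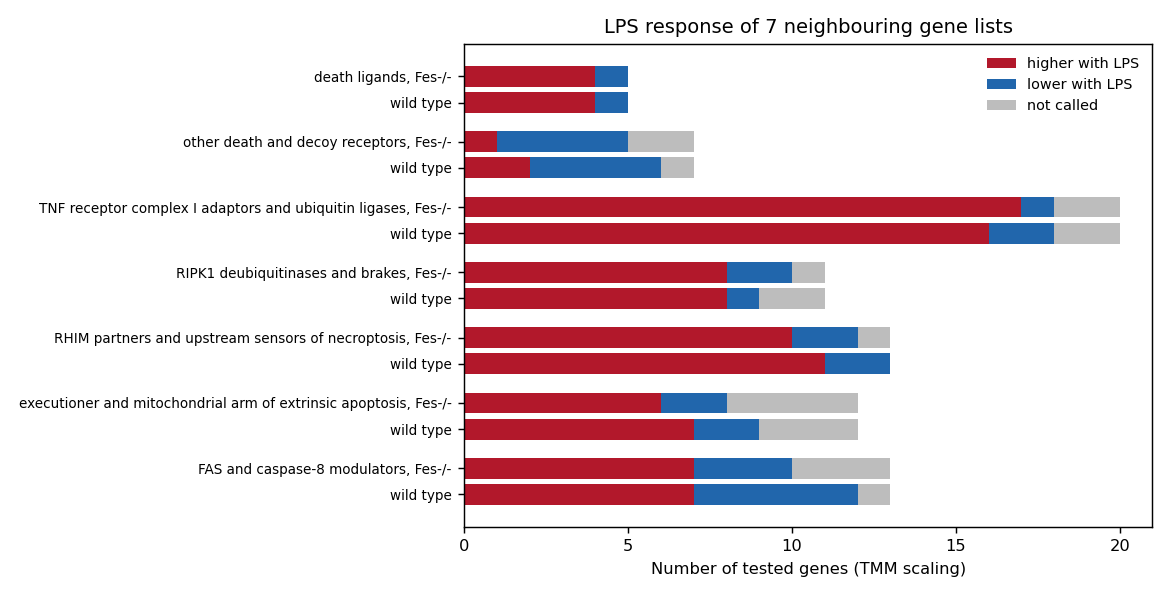
Number of tested genes of 7 pathway lists called higher, called lower or not called with LPS in Fes-/- and wild-type macrophages by edgeR with TMM scaling. Death ligands, complex I genes, the list of RIPK1 deubiquitinases and brakes, and RHIM partners and upstream sensors are mostly higher. The other death and decoy receptors are mostly lower.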

How the data were processed

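The authors deposited whole-number counts for each Ensembl gene and library, and TPM values scaled by gene length, as the file headers name them. Per the submitters' processing notes DESeq2 1.34.0, Picard 2.9.0, STAR 2.7.8a and R 4.1.12 were used, with builds GRCm38 and mm9 listed; the counting program and its use of strand are not given in the sources. Lengths implied by counts over TPM lay within 1% of the summed GENCODE M21 exons for 10160 of 10308 genes, so GRCm38 positions come from that annotation.

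Counts were fitted in R 4.3.3 with edgeR 4.0.16 (filterByExpr, TMM, 1 mean for each of 4 groups, robust quasi-likelihood, 8 residual degrees of freedom). P-values are two-sided, Benjamini-Hochberg adjusted over 15801 genes and called under 0.05. The SE and 95% interval come from the F statistic. Adjusted p-values printed without a tool are from this test. Alternatives used DESeq2 1.42.0, limma 3.58.1 on log2(TPM + 1) and log2(TPM + 0.1), RLE factors, library totals, other filters, the 6 libraries of a comparison, a replicate block and each library left out. Figures were drawn with matplotlib 3.10.9. Proteins were not analysed here.

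Named are all 10 genes, the 3 smallest p per list with LPS in wild type, and the 3 profiles nearest to the highest riser and the lowest faller. One gene that this rule names is not reported here. Members, lists and tests were chosen with earlier results of these data known. The labels do not tie replicate numbers to mice, so p-values measure the spread between libraries, part of which may be technical.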

Additional observations from a re-analysis of the deposited data

How the results depend on the processing

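Among the 10 genes, Fas, Tnfrsf1a, Tnfrsf1b, Fadd, Casp8, Cflar and Mlkl kept their direction and call with LPS in both genotypes in all 21 alternatives, and Tradd did in Fes-/- macrophages. Ripk1 turned lower with library totals (-0.83 in Fes-/- and -0.86 in wild-type macrophages), on log2(TPM + 1) (-0.85 and -0.87) and on log2(TPM + 0.1) (-0.87 and -0.89). These settings apply no TMM or RLE factor, and which scale is nearer to the amount per cell was not tested. Leaving out each library in turn gave 8 to 9 of the 10 genes called with LPS in Fes-/- and 7 to 9 in wild-type macrophages, and 0 between genotypes and in the interaction. Over all genes it gave 11014 to 11848 with LPS in Fes-/- and 11074 to 11743 in wild-type macrophages, 12 to 15 under PBS, 12 to 19 under LPS and 2 to 3 in the interaction.

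Between genotypes 13 genes of the whole table were called under PBS, 17 under LPS and 3 in the interaction. DESeq2 called 33, 37 and 5, and no filter on low counts gave 315, 358 and 90, and the cause was not tested. For the interaction log2(TPM + 1) gave 6 and log2(TPM + 0.1) gave 5. The stricter IRF motif (the shorter one followed by CT) was held by 0 of the 9 genes, against 3 for the shorter one, and the stricter kB motif (GGGA, any base, TTTCC) by 0.

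Same-numbered PBS and LPS libraries deviated together with r over 15801 genes of 0.0678, 0.0894 and 0.189 in Fes-/- and 0.141, 0.166 and 0.137 in wild-type macrophages, and each library correlated best with its own number, a hint from the data and not the design. With a block of genotype and number, 9 of the 10 genes were called with LPS in each genotype, as without it. That block called 4 genes of the whole table in the interaction. The genotype comparisons used a block by number alone, which ties Fes-/- and wild-type libraries of different mice and is not a paired check. It called 0 of the 10 genes, and 12 genes of the whole table under PBS and 12 under LPS. The lowest count of any of the 10 genes in any library was 220, for Fadd in a wild-type LPS library. Counting error was not separated from replicate spread.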

Other observations

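The RHIM sensor gene Zbp1 was at 412, 384 and 389.5 TPM in Fes-/- LPS libraries 1, 2 and 3, against 70.4, 56.2 and 23.3 TPM in Fes-/- PBS libraries. It was at 436, 399 and 422 TPM in wild-type LPS libraries, against 45.3, 37.1 and 63.0 TPM in wild-type PBS libraries.

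The ratio of Casp8 to Fadd transcripts within a library averaged 68.4 ± 2.18 in Fes-/- LPS libraries, against 6.88 ± 0.307 in Fes-/- PBS libraries, and 68.2 ± 7.72 in wild-type LPS libraries, against 7.57 ± 0.648 in wild-type PBS libraries (SD, n = 3 each). Tradd to Fadd averaged 6.22 ± 0.111 in Fes-/- LPS libraries, against 2.33 ± 0.169 in Fes-/- PBS libraries, and 6.25 ± 0.80 in wild-type LPS libraries, against 2.48 ± 0.274 in wild-type PBS libraries. Ripk3 to Ripk1 went the other way. Its mean was 1.08 ± 0.151 in Fes-/- LPS libraries, against 1.49 ± 0.145 in Fes-/- PBS libraries. Wild-type libraries averaged 0.971 ± 0.167 with LPS, against 1.29 ± 0.296 with PBS, and these overlapped.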
